A study of Mus musculus with 8 samples.

Results

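The genes described here encode proteins that hepatocytes make and secrete into plasma, together with a few enzymes and binding proteins that stay inside those cells. A gene belonged to the set when its name in the scanner files was 1 of 43 names fixed as a list, and all 43 names were on the array among 29608 gene names in all. They were measured by 53 probes, 33 genes having 1 probe and 10 genes having 2. The names were grouped by role into carriers of plasma (6 genes), fibrinogen chains (3 genes), clotting factors (5 genes), inhibitors of clotting and regulators of clot lysis (6 genes), other protease inhibitors and murinoglobulins (8 genes), apolipoproteins (6 genes), the end of the complement cascade (4 genes) and hepatocyte enzymes or binding proteins (5 genes). The tissue was palm skin, so the question was in which RNA samples such transcripts were found at all, and what PACAP over vehicle read for them.

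WT mice were C57BL/6 and the PAC1R KO mice were Adcyap1r1 -/- animals, which lack the PAC1 receptor for PACAP, and both were between 9 and 10 weeks old. Each mouse was anaesthetised and received an intradermal injection of 5 µL into the footpad, either vehicle, which was saline with 0.1% BSA, or vehicle with PACAP at 1e-07 mol/L, and paw skin was taken 30 or 60 min later. The study's methods name 6 mice of each genotype, but neither they nor the labels say which of them entered each RNA sample. Skin RNA of 1 vehicle and 1 PACAP sample was hybridised together for each genotype and time, which gave 4 comparisons and 8 RNA samples. Each pair was run on 2 arrays with swapped dyes, and the arrays of a pair were counted as 1 replicate, so the spread between animals is unknown in each comparison. Since the WT samples shared 1 slide and the KO samples a different one, genotype and slide cannot be told apart.

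The green (Cy3) channel had 54.0% to 65.3% of an array's spots well above background and the red (Cy5) channel 78.6% to 94.5%, so detection on both arrays of a sample was set by its Cy3 array. How precise the values are is limited by how few arrays there were. Adcyap1r1, the deleted gene, read between 7.91 and 8.56 on the log2 level scale in the samples labelled KO and between 8.27 and 8.76 in the WT samples. Its probe was not matched to the deleted part of the gene, so this reading checks no label. The 12 keratin, collagen and other skin genes of a marker list were well above background on both arrays in all 8 samples.

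Hepatocytes secrete most of the plasma proteins, among them albumin, the fibrinogen chains, prothrombin and antithrombin, and they do so under a small group of liver-enriched transcription factors that act together at their promoters. Fibrinogen is cut by thrombin to fibrin, antithrombin and protein C hold thrombin in check, and plasmin made from plasminogen dissolves the clot. In skin these proteins are usually met as plasma that leaks from vessels, whereas some genes of the set, such as Rbp4 and Vtn, are also transcribed outside the liver.

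The promoters of the albumin gene and of the fibrinogen chains are shown because albumin is the best known hepatocyte product of the set and because the fibrinogen chains, which lie side by side on chromosome 3 and are needed in equal amounts, gave different readings on the arrays. The 250 bases before the RefSeq start (GRCm38.p6) are written 5′ to 3′ on the strand of the gene, and capitals mark matches on either strand to a C/EBP motif (TTGCNNAA), factors known for their role in hepatocytes. The windows are chr5:90460620-90460869 on the plus strand for Alb, chr3:83025903-83026152 on the plus strand for Fga, chr3:83049864-83050113 on the minus strand for Fgb and chr3:83007474-83007723 on the plus strand for Fgg.
Alb: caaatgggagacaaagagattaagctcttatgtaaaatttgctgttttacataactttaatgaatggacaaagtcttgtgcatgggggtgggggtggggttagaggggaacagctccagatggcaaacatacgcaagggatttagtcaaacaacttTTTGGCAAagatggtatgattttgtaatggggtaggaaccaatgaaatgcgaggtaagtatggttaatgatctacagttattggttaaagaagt
Fga: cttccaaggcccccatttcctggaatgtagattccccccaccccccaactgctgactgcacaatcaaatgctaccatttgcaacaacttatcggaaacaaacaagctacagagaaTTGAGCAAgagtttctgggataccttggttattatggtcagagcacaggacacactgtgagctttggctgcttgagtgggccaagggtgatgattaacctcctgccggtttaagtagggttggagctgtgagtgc
Fgb: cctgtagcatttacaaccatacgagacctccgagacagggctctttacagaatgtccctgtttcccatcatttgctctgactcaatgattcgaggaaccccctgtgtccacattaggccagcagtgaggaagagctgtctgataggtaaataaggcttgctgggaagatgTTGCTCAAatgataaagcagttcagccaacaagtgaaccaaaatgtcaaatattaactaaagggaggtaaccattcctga
Fgg: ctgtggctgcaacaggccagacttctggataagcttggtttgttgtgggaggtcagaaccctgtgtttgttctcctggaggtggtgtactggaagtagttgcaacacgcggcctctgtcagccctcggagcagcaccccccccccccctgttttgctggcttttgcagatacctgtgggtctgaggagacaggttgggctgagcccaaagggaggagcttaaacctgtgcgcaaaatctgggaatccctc

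Alb, Fga and Fgb each held 1 match to this motif, and the Fgg window held none. Promoter windows were matched for 36 of the 43 genes. The C/EBP motif stood in 13 of them (36.1%), against 10.8% of all 27025 genes with a window. For a motif of HNF4 (CAAAGTCCA) the counts were 1 of 36 and 0.451% of all, for the FOXA motif TGTTTGC they were 8 of 36 and 4.93%, for the FOXA motif TGTTTAC 4 of 36 and 3.54%, and for the TATA box (TATAAA) 8 of 36 and 14.3%. These matches describe the letters in the windows and not binding.

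Albumin was read by a single probe, at chr5:90901598-90901657 (mm9, plus strand), whose sequence is shown because it carried the reading of the most abundant plasma protein.
Alb probe: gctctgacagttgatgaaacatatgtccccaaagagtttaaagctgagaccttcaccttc

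Nearly all differences of the set lay in 1 of the 4 comparisons. In WT mice at 60 min, 11 of the 43 genes were down-regulated and 0 were up-regulated, by a rule that asked for a change of at least 2.0-fold (or to 0.5-fold) in the mean of the arrays, for arrays that moved the same way, and for each to have a p from the scanner software under 0.01. Over all gene names, 0.115% were down-regulated and 0.659% up-regulated in that comparison by the same rule. In WT mice at 30 min 0 of the 43 were past the rule, where 0.108% of all gene names were down-regulated and 0.267% up-regulated. In KO mice at 30 min 1 gene, Fgg, was up-regulated and 0 were down-regulated, where 0.692% of all gene names were up-regulated and 0.098% down-regulated. In KO mice at 60 min 0 of the 43 were past the rule, where 0.162% of all gene names were down-regulated and 0.179% up-regulated. The study placed 7 of the 11 genes (Serpinc1, Fgg, Apoh, Fgb, Alb, Hpx and Serpina3k) under blood coagulation from these same samples, so they are not independent evidence of a direction. Among the 36 genes that it did not place there, 4 were down-regulated at 60 min in WT mice.

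**Figure D1:**
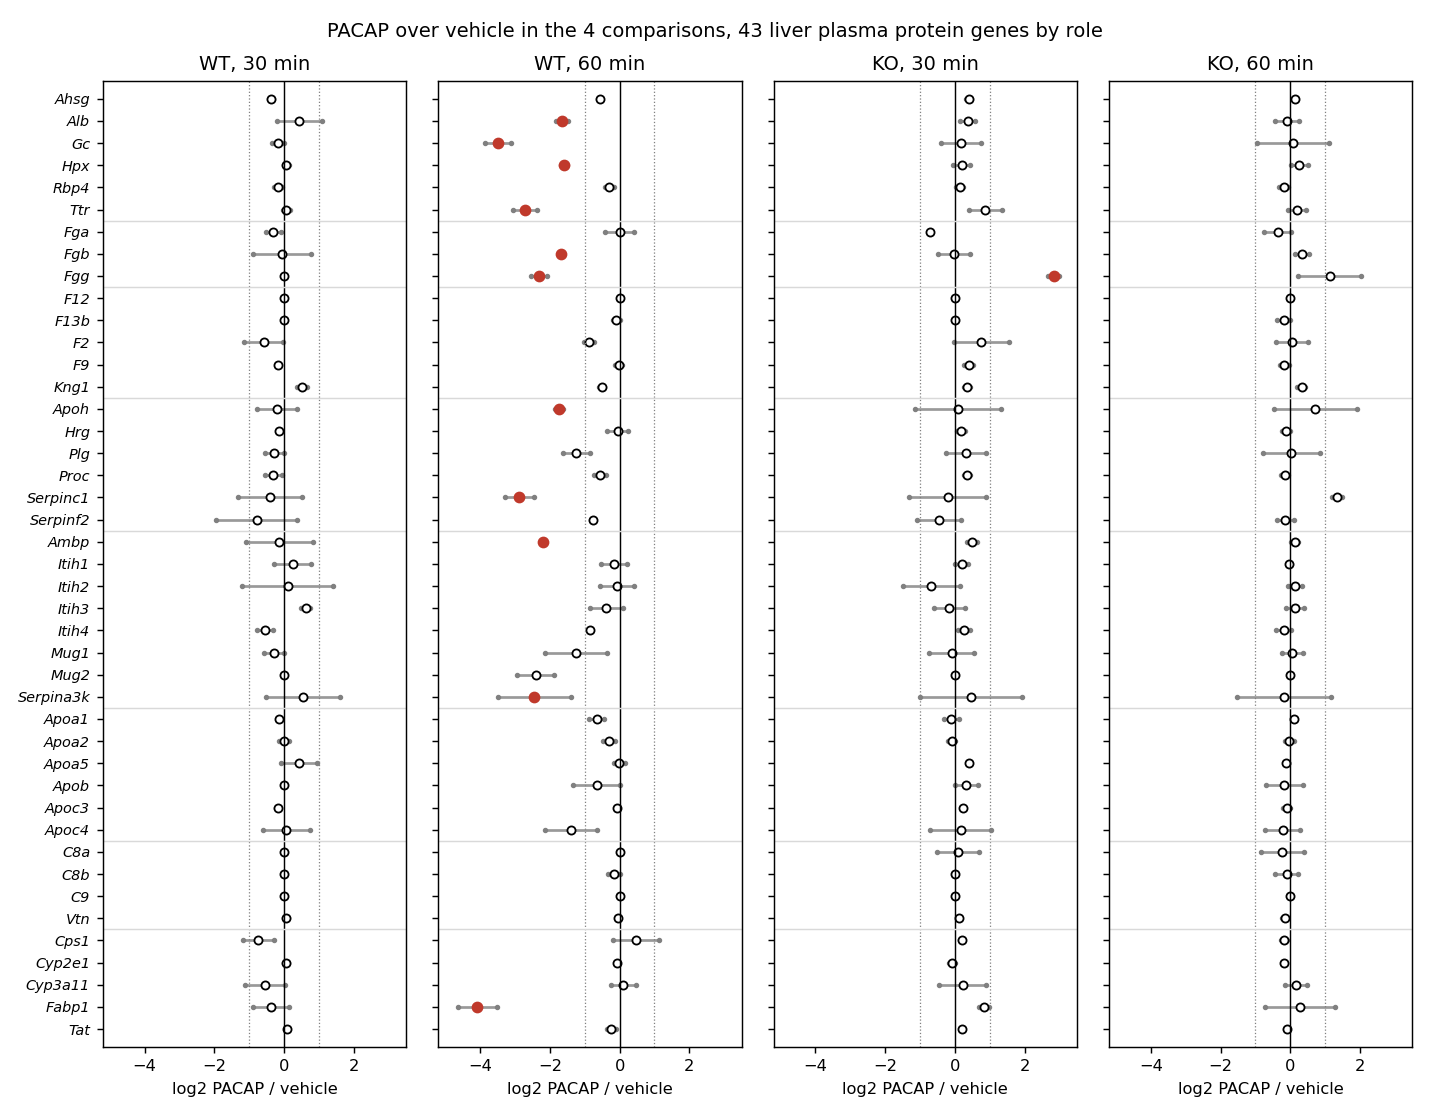
Log2 PACAP over vehicle of the 43 genes (rows, by role) in the 4 comparisons (panels). Grey dots are the 2 dye-swapped arrays, joined by a line, open circles their mean, red circles genes past the rule, and dotted lines mark 2.0-fold and 0.5-fold. The red circles lie in WT at 60 min, 11 of them below 0, apart from Fgg in KO at 30 min.

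By role, 4 of 6 carriers, 2 of 3 fibrinogen chains, 2 of 6 genes of anticoagulation and clot lysis, 2 of 8 other inhibitors and 1 of 5 hepatocyte enzymes or binding proteins were down-regulated there, and 0 of 5 clotting factors, 0 of 6 apolipoproteins and 0 of 4 complement genes. In these last groups F12, F13b, Apoa1, Apob, C8a, C8b and C9 were above background on both arrays in no sample, so the roles are not compared evenly. The median log2 ratio of the 43 genes was -0.57 in WT mice at 60 min, and -0.01, 0.18 and -0.03 in WT at 30 min, KO at 30 min and KO at 60 min. The median over all gene names was 0.00 in all 4 comparisons. In WT mice at 60 min 38 of the 43 ratios were below 0 (88.4%), against 47.2% of all gene names. With normexp background correction and loess in place of the Feature Extraction ratios, 2 genes (Fabp1 and Gc) remained past the rule at 60 min in WT mice and the median was -0.19. This setting changes the background correction, with an offset of 50, and the normalization at once, and the cause was not tested. In bulk skin RNA, fewer cells of a type and less RNA per cell cannot be told apart.

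Levels in the single RNA samples are given as a description, since the 11 genes were chosen for a ratio within 1 pair and the other samples differ from that pair in genotype, slide or time. Levels are log2 intensities after normexp correction, loess and Aquantile normalization, averaged over both arrays, and 8 values are given in the order vehicle then PACAP for WT 30 min, WT 60 min, KO 30 min and KO 60 min. Of the 11 genes, 10 had their highest level of the 8 samples in the WT 60 min vehicle sample, and Fgg had its second highest there. Over all 43 genes the WT 60 min vehicle sample held the highest level for 26 (60.5%), against 10.2% of all gene names. Genes not above background on both arrays of any sample are counted in that share, and among the 8 genes above it in all samples the share was 3 of 8 (37.5%). Of the 26 genes 10 were among the 11 chosen in this pair, and for the other 32 the count was 16. Among the 11 genes the WT 60 min vehicle sample held the highest Cy3 level for 10 and the highest Cy5 level for 10. The rule that chose them had asked for both dye orientations to move the same way, so these counts do not test for a dye effect. Over all 43 genes the counts were 21 in Cy3 and 25 in Cy5.

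**Figure D2:**
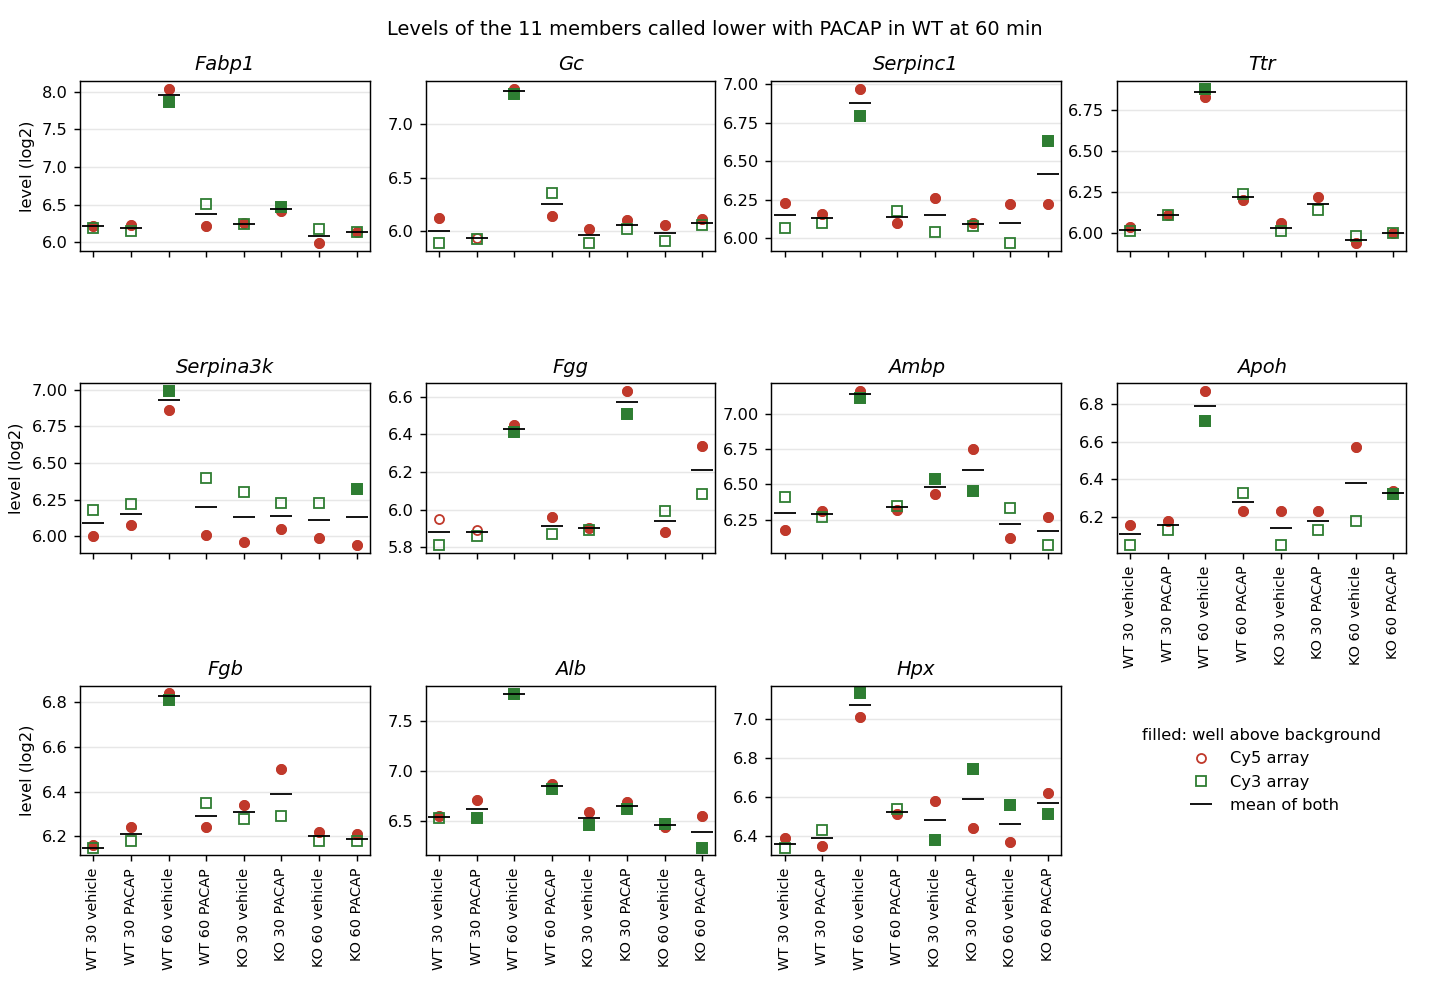
Level (log2 intensity) of the 11 genes down-regulated in WT mice at 60 min in each of the 8 RNA samples. Red circles are the Cy5 array, green squares the Cy3 array, black dashes their mean, and filled symbols are well above background. The WT 60 min vehicle sample lies above the others in each panel except that of Fgg, where the KO 30 min PACAP sample reaches 6.57 and the WT 60 min vehicle sample 6.43.

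Among the carriers, Alb, the main protein of plasma, had levels of 6.54, 6.62, 7.77, 6.85, 6.53, 6.65, 6.46 and 6.39. The WT 60 min vehicle sample stood 0.93 above the next highest, its own PACAP partner, and the other 7 samples spanned 6.39 to 6.85. PACAP over vehicle at 60 min in WT mice was 0.357-fold and 0.283-fold on the 2 arrays, a mean of 0.318-fold. Gc, the vitamin D-binding protein, had levels of 6.00, 5.94, 7.31, 6.25, 5.96, 6.06, 5.98 and 6.08. It was well above background on both arrays in the WT 60 min vehicle sample alone, and its ratio there was 0.115-fold and 0.0689-fold on the arrays, a mean of 0.0890-fold. A second Gc probe, above background on both arrays in no sample (6.09 to 6.36), gave 1.04-fold and 0.225-fold and did not pass the rule.

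Ttr, the carrier of thyroxine and of retinol-binding protein, had levels of 6.02, 6.11, 6.86, 6.22, 6.03, 6.18, 5.96 and 6.00 and a mean ratio of 0.151-fold at 60 min in WT mice. It too was above background on both arrays in the WT 60 min vehicle sample only. Hpx, which binds free heme, had levels of 6.36, 6.39, 7.07, 6.52, 6.48, 6.59, 6.46 and 6.57, with a ratio of 0.333-fold. The other 7 samples of Hpx lay within 0.23 of each other, less than the 0.48 that parted the highest from the second. Ahsg, which keeps calcium phosphate in solution, and Rbp4, which carries retinol, did not pass the rule. Their levels were high in every sample, between 8.61 and 9.32 for Ahsg and between 10.68 and 11.33 for Rbp4, and their ratios at 60 min in WT mice were 0.675-fold and 0.820-fold.

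The readings of the fibrinogen chains, each from its own probe, differed among themselves. Fgb, probed at chr3:82846334-82846393 (mm9), had levels of 6.15, 6.21, 6.83, 6.29, 6.31, 6.39, 6.20 and 6.19 and ratios of 0.314-fold and 0.315-fold on the 2 arrays of WT mice at 60 min. Fgg, probed at chr3:82818825-82818884, had levels of 5.88, 5.88, 6.43, 5.91, 5.90, 6.57, 5.94 and 6.21. It was thus high in 2 samples, the vehicle sample of WT mice at 60 min and the PACAP sample of KO mice at 30 min. Its ratio was 0.202-fold (0.173-fold and 0.235-fold) in the former comparison and 7.11-fold (6.40-fold and 7.90-fold) in the latter, with 4.07-fold and 1.17-fold on the arrays of KO mice at 60 min. In KO mice at 30 min the vehicle sample was above background on 1 array, and with normexp and loess the log2 ratio was 0.68 in place of 2.83 and Fgg did not pass the rule. In WT mice at 30 min Fgg was above background on no array of either sample. Fga, probed at chr3:82837260-82837319, lay between 6.06 and 6.19 in all 8 samples, above background on both arrays in none, with a ratio of 0.997-fold at 60 min in WT mice and 0.609-fold in KO mice at 30 min. Its second probe lay between 5.88 and 6.07 and was likewise above background on both arrays in no sample. A change in Fga was thus not detectable at this signal. In the KO 30 min comparison, where Fgg rose, Fgb gave 0.978-fold.

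None of the clotting factors passed the rule in any comparison. F2, prothrombin, had levels of 6.64, 6.57, 6.92, 6.60, 6.19, 6.29, 6.33 and 6.33, again highest in the WT 60 min vehicle sample, with 0.544-fold at 60 min in WT mice. Kng1, the kininogen from which bradykinin is cut, was highest there as well (7.39 against 6.47 to 7.10 in the others) with 0.701-fold. F9 was well above background in all 8 samples, between 7.33 and 8.14, and gave 0.980-fold. F12 and F13b reached at most 6.00 and 5.92 and were above background on both arrays in no sample, so a change in them was not detectable at this signal.

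Among the genes that restrain clotting or govern clot lysis, Serpinc1 and Apoh were down-regulated. Serpinc1, antithrombin, had levels of 6.15, 6.13, 6.88, 6.14, 6.15, 6.09, 6.10 and 6.42 and a mean ratio of 0.137-fold (0.184-fold and 0.102-fold) at 60 min in WT mice. Its second highest sample was the PACAP sample of KO mice at 60 min, where the ratio was 2.81-fold and 2.28-fold on the arrays and missed the p limit on 1 of them. Apoh, a phospholipid-binding glycoprotein, had levels of 6.11, 6.16, 6.79, 6.28, 6.14, 6.18, 6.38 and 6.33 and a mean ratio of 0.301-fold. Plg, plasminogen, lay between 6.01 and 6.31 and was above background on both arrays of no sample, with 0.553-fold and 0.323-fold at 60 min in WT mice. Proc, protein C, Serpinf2, the inhibitor of plasmin, and Hrg gave 0.676-fold, 0.585-fold and 0.963-fold. Of these, Proc and Serpinf2 were highest in the WT 60 min vehicle sample, by 0.15 and 0.26, and Hrg was not. In Cy3 alone Proc was not highest there (6.80 against 6.85).

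Ambp, the precursor of bikunin, and Serpina3k, a serpin of the kallikrein-binding family, were down-regulated among the other inhibitors. Ambp had levels of 6.30, 6.29, 7.14, 6.34, 6.48, 6.60, 6.22 and 6.17 and ratios of 0.217-fold and 0.220-fold on the arrays. Serpina3k had levels of 6.09, 6.15, 6.93, 6.20, 6.13, 6.14, 6.11 and 6.13, so that the 7 other samples lay within 0.11 of each other, and a mean ratio of 0.184-fold that differed between the arrays (0.0887-fold and 0.383-fold). Mug1 and Mug2, murinoglobulins whose sequences are close to each other, were highest in the same sample at 6.41 and 6.37, above background there on 1 of the 2 arrays. Mug2 was above background on neither PACAP array and was at least 1.23-fold lower with PACAP, a difference that missed the p limit on 1 array. The heavy chains of the inter-alpha inhibitor, Itih1, Itih2, Itih3 and Itih4, gave between 0.551-fold and 0.954-fold, and the lowest of these was Itih4, which was above background in all 8 samples.

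The apolipoproteins were past the rule in no comparison by their brightest probes, but second probes did pass it for Apoa2 and Apoc3, proteins of high-density and triglyceride-rich lipoproteins. The brightest Apoa2 probe, at chr1:173156445-173156504 (mm9), lay between 9.82 and 10.27 in all samples and gave 0.816-fold at 60 min in WT mice. The second, at chr1:173156320-173156379, had levels of 6.53, 6.57, 8.27, 7.01, 6.63, 6.97, 6.35 and 6.38 and gave 0.273-fold and 0.220-fold. The second probe was highest in the WT 60 min vehicle sample and the brightest was highest in the KO 30 min vehicle sample. The brightest Apoc3 probe gave 0.955-fold, and the second, with levels between 6.69 and 7.38, gave 0.468-fold with its highest level again in the WT 60 min vehicle sample. Apoc4 read 0.384-fold (0.229-fold and 0.642-fold), Apoa1 0.636-fold, Apob 0.632-fold and Apoa5 0.993-fold, of which Apoa1 and Apob were above background on both arrays in no sample.

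C8a, C8b and C9, which form the pore at the end of the complement cascade, were above background on both arrays in no sample (5.79 to 6.04). Vtn, vitronectin, lay between 8.80 and 9.43 and gave 0.972-fold at 60 min in WT mice. Fabp1, the fatty acid-binding protein of liver and gut, had the largest fall of the brightest probes, 0.0592-fold (0.0876-fold and 0.0401-fold). Its levels were 6.21, 6.19, 7.96, 6.37, 6.24, 6.44, 6.08 and 6.13, and the WT 60 min vehicle sample stood 1.51 above the next. Cyp3a11, a cytochrome of drug metabolism, was above background on both arrays in no sample by its brightest probe (5.97 to 6.15). Its second probe, at chr5:146666237-146666296 (mm9), was above background on both arrays in the WT 60 min vehicle sample (6.62) and in no other sample (5.86 to 5.99), and on no PACAP array at 60 min in WT mice, so that it was at least 1.5-fold lower with PACAP. Cyp2e1 was the brightest member in every sample, at 11.55 to 12.39, and gave 0.950-fold. Tat and Cps1, enzymes of amino acid breakdown and of the urea cycle, gave 0.846-fold and 1.38-fold.

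How many of the genes were detected differed between samples. On both arrays, 8, 13, 26, 18, 19, 19, 18 and 23 of the 43 were well above background in the 8 samples, so the WT 60 min vehicle sample held the most and the WT 30 min vehicle sample the fewest. Without the 11 genes chosen in the WT 60 min pair, the counts for the other 32 were 8, 12, 15, 17, 16, 14, 16 and 18, and that sample did not hold the most. Over all gene names the shares detected were 55.5%, 59.0%, 58.6%, 62.1%, 63.4%, 61.8%, 64.4% and 67.1%, and the WT 60 min vehicle sample was among the lower ones. Of the 11 down-regulated genes, 11 were above background on both arrays of the WT 60 min vehicle sample, 1 on those of its PACAP partner (Alb), and between 0 and 5 in the other 6 samples. The 8 genes above background on both arrays in all 8 samples (F9, Itih4, Ahsg, Apoa2, Apoc3, Cyp2e1, Vtn and Rbp4) gave a median of -0.18 (log2 ratio) in the WT 60 min comparison, and 0 of them passed the rule. At the other end, 13 genes were above background on both arrays in no sample.

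**Figure D3:**
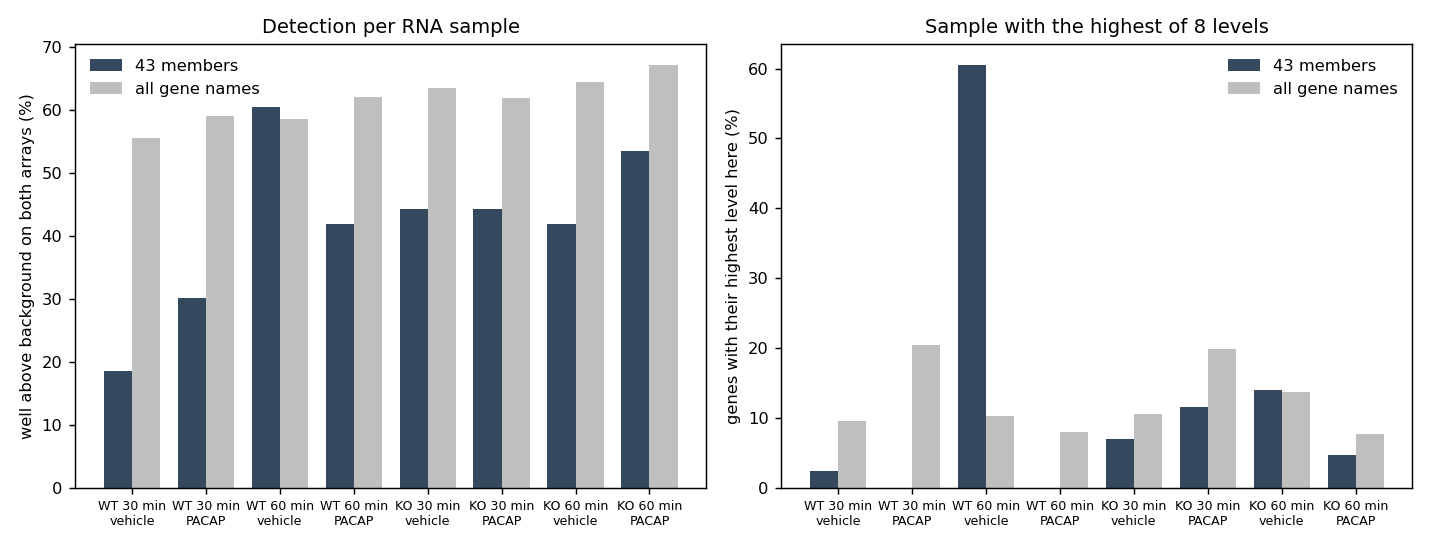
Share (%) of the 43 genes and of all 29608 gene names that were well above background on both arrays of each RNA sample (left), and share with the highest of their 8 levels in that sample (right). The WT 60 min vehicle sample held the highest level for 60.5% of the 43 genes and for 10.2% of all gene names, and 10 of these 26 genes were chosen by a fall from that sample.

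With the WT 30 min vehicle sample in the place of the WT 60 min vehicle sample, a comparison added after the values were seen, the median level difference of the 11 genes went from -0.72 to 0.16 and 1 of 11 was below 0. With the mean of the 3 other vehicle samples it was 0.09, with 0 of 11 below 0. The 11 genes were chosen for lying below the WT 60 min vehicle sample, so a smaller difference from any other vehicle sample follows in part from that choice and is given as a description.

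Other lists were set beside the 43 genes. Of 47 further hepatocyte genes on the array, 6 were down-regulated at 60 min in WT mice (Serpina1a, Serpina1c, Serpina1d, Serpina1e, Cyp2d10 and Bhmt) and 0 up-regulated, with a median of -0.08. The Serpina1 genes, which encode alpha-antitrypsin and are so alike that their probes may share transcripts, fell together at 0.258-fold to 0.374-fold. Serpina1a had levels of 7.45, 7.45, 9.79, 8.14, 7.76, 8.02, 8.03 and 7.98. In KO mice at 30 min 2 of the 47, Apoc2 and Uox, were up-regulated. Among 7 transcription factor genes of hepatocytes, including Hnf4a, 0 passed the rule in any comparison, and between 0 and 2 were above background on both arrays of a sample.

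At 60 min in WT mice 1 of 7 erythroid and 1 of 11 platelet genes were down-regulated by their brightest probes. Other probes of the platelet gene Clec1b also passed the rule (0.438-fold and 0.45-fold), whereas its brightest probe gave 0.845-fold. Hbb-b1, a beta-globin, had levels of 11.29, 11.83, 12.23, 11.05, 10.71, 11.31, 10.56 and 11.18 and gave 0.413-fold at 60 min in WT mice. Over the 7 erythroid genes the median log2 ratio was -0.82, and 5 were highest in the WT 60 min vehicle sample. Their summed linear level was 76500 in that sample and between 31100 and 59500 in the other 7. Among the 11 platelet genes the median was -0.22, and 4 were highest in the WT 60 min vehicle sample. All 11 ratios were below 0, against 47.2% of all gene names. Ppbp was down-regulated at 60 min in WT mice (0.458-fold) and up-regulated in KO mice at 30 min (2.09-fold), the samples in which Fgg was also high, whereas Pf4 lay between 14.11 and 14.37. The summed level of the 11 was between 18700 and 22300, and 19700 in the WT 60 min vehicle sample. Pf4, by far the brightest, makes up most of that sum, so it says little of the other platelet genes. The part of the erythroid and platelet genes in the result was not tested.

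Among 18 genes of clotting that vessel walls, keratinocytes and fibroblasts express, which include F3, the tissue factor, 0 passed the rule in any comparison and the median was 0.07 at 60 min in WT mice. F3 lay between 13.39 and 13.76 in the 8 samples. Of 12 intestinal, 10 kidney tubule and 10 exocrine pancreas genes, 0 passed the rule in any comparison. In the WT 60 min vehicle sample 3, 1 and 4 of them were above background on both arrays, so a fall in most could hardly be seen. Over all gene names 0.115% were down-regulated at 60 min in WT mice. Of 10 acute phase genes, which the liver and also inflamed skin can express, 0 were down-regulated and 1, Saa2, was up-regulated (2.12-fold) at 60 min in WT mice, with a median log2 ratio of 0.00 and 5 of 10 ratios below 0. Saa1, Saa2 and Hp were up-regulated in KO mice at 30 min, and Saa1 and Saa2 in KO mice at 60 min. Skin genes gave 0 of 12 past the rule at 60 min in WT mice and 2 of 12, Krt1 and Krt10, down-regulated in KO mice at 30 min. In that comparison, which holds the rise of Fgg, 12 of 12 skin ratios were below 0 with a median of -0.69 (log2), and their part in the result was not tested.

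**Figure D4:**
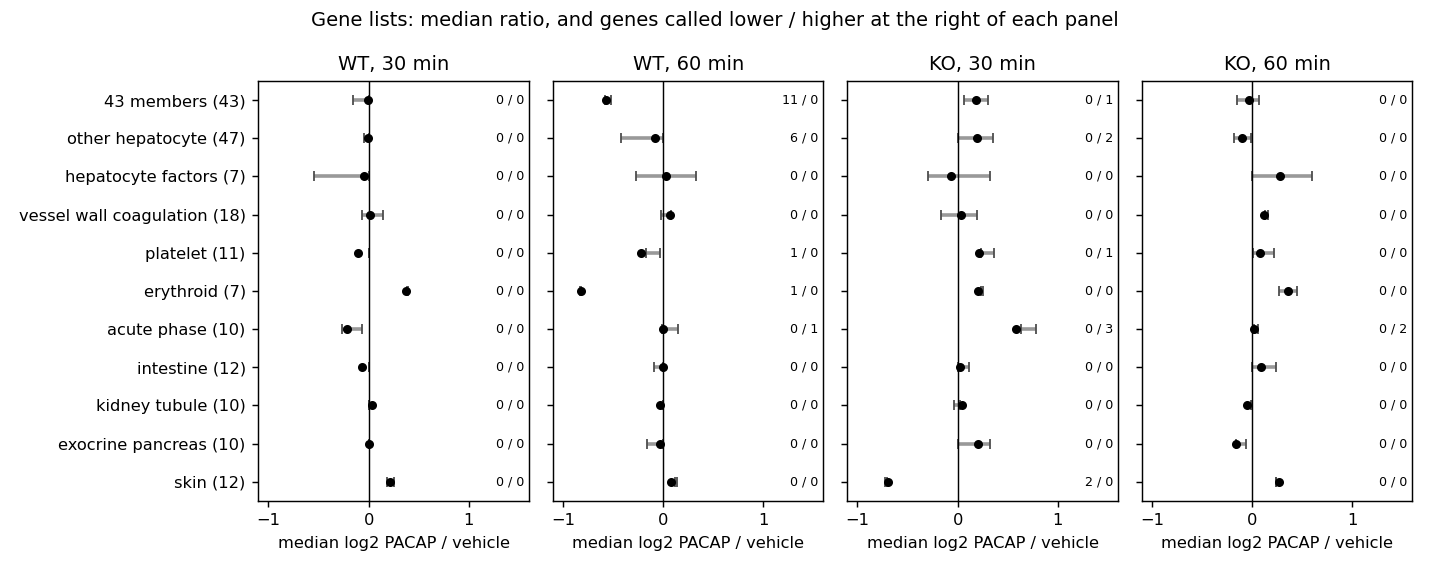
Median log2 PACAP over vehicle of the 43 genes and of 10 other lists (rows, genes on the array in brackets) in the 4 comparisons. Ticks joined by a line are the medians on each of the 2 arrays, the dot is the median of the mean ratios, and the numbers at the right count genes past the rule as lower / higher. At 60 min in WT mice the 43 genes (-0.57) and the erythroid genes (-0.82) lie farthest below 0.

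In all, 43 probes of 40 gene names were down-regulated at 60 min in WT mice. Of these probes 14 belonged to the 43 genes, 8 to the further hepatocyte genes, 3 to platelet genes and 1 to an erythroid gene. The other 17 were in none of the lists, and those named here were chosen after their values were seen, Hbb-b2, a second beta-globin (0.463-fold), Slc27a5 (0.181-fold) and Mup20 (0.336-fold). The 5 lowest ratios were those of Cyp3a11, Fabp1, Gc, Serpinc1 and Ttr, whose PACAP sample was above background on 1 array or none, so their order is not firm. The non-member genes whose levels over the 8 samples ran most like the mean of the 43 genes, among 209 probes with a range of 2 or more, were Serpina1a, Serpina1c and Serpina1e, at a Pearson r of 0.959, 0.952 and 0.937 over 8 samples. An unnamed probe followed at 0.926, and then Atf3 at 0.730, Ccl2, Ccl7, Cxcl1, Gstm1 and Lrrc30, at 0.608 to 0.704. These r describe samples that share arrays in pairs and carry no test.

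Differences by genotype and time were tested with limma across the comparisons. The mean PACAP effect over the 4 comparisons passed an adjusted p of 0.05 for 0 of 30351 probes (0%), with 678 below an unadjusted 0.05, and 33 of the 43 genes were among those tested. Fgg was not among them, and Gc was tested only by the dim probe that had not passed the rule. The difference of the PACAP effect between KO and WT mice passed for 0 probes (0%, 972 unadjusted), and that between 60 and 30 min for 0 (0%, 483 unadjusted). With 2 values against 2, Serpinc1 was 2.20 ± 0.86 (SE, log2) higher in KO than in WT mice and Fabp1 2.79 ± 1.09, each at an adjusted p of 0.84. Without the WT 30 min comparison 170 of 30351 probes and 10 of the 33 genes passed in KO against WT, and without KO 60 min 18 probes and 5 genes passed in 60 against 30 min. Each of these fits had 1 residual degree of freedom and set 2 values against a single one, which is assumed to vary like the others. In a fit with time as a covariate 1 of them passed.

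Levels over the 8 samples differed by time for 10.8% of 26348 probes and by genotype, which is also slide, for 3.43%. Neither time nor genotype varies within a hybridised pair, so only 4 pairs inform them. The fits nevertheless had 4 residual degrees of freedom, since both samples of a pair entered, so these p-values are uncertain. With vehicle samples only, which left 1 residual degree of freedom, 0 probes passed by time and 0 by genotype. Of 31 genes of the set that could be tested, 3 were higher at 60 than at 30 min, Apoc3 (0.60 ± 0.07, SE, adjusted p = 0.015), Apoa5 (0.46 ± 0.07, adjusted p = 0.020) and Tat (0.30 ± 0.06, adjusted p = 0.034). That share was no larger than the one over all probes. A second Apoc3 probe gave 0.23 ± 0.15 in the same fit (adjusted p = 0.35). The SE leaves out the spread between the arrays of a sample, which were averaged first. In the WT 60 min vehicle sample the Cy3 and Cy5 arrays read 7.36 and 8.27 for Apoc3, 6.50 and 7.19 for Apoa5, and 6.79 and 7.28 for Tat. Higher in KO than in WT samples were 5, Itih1 (0.63 ± 0.09, adjusted p = 0.041), Cyp2e1 (0.60 ± 0.08, adjusted p = 0.036), F9 (0.54 ± 0.09, adjusted p = 0.046), Apoa5 (0.37 ± 0.07, adjusted p = 0.047) and Hrg (0.32 ± 0.06, adjusted p = 0.046). The other Cyp2e1 probe gave 0.46 ± 0.12 in this fit and did not pass (adjusted p = 0.082). Leaving out the WT 30 min, the WT 60 min or the KO 60 min pair left 0 genes past the threshold in either fit, and leaving out the KO 30 min pair gave 9 by time and 7 by genotype.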

How the data were processed

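The authors hybridised palm skin RNA to Agilent whole-genome arrays with 2 colours and extracted the scans with Feature Extraction (12.0.3.1 per the file headers, 11.0.1.1 per the submitters' processing notes). The deposited ratios (log10, Cy5 over Cy3), their p-values and the deposited intensity values per channel were corrected for background and LOWESS-normalized by the authors' software. The authors' series matrix equals the log10 ratio of the processed signals within 5e-10, also at the 13.4% to 25.0% of spots where the software set its own ratio to 0, so medians differ between the sources. Probe positions are mm9, from the files.

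Ratios were turned to PACAP over vehicle by the dyes in the labels, and repeated spots were averaged without outliers, then the arrays of a pair were averaged. A gene is given by its brightest probe over the 8 samples. Ratios of dim probes are larger on this scale than level differences, which carry an offset of 50 (normexp, then loess and Aquantile). A bound ("at least") sets the brighter sample against the higher of the dim sample's own level and the lowest level above background on its arrays. limma 3.58.1 in R 4.3.3 (lmFit, eBayes, Benjamini-Hochberg) fitted ratios of 30351 probes that at least 1 channel of every array detected above background, and levels of 26348 probes above background on both arrays of any sample with the hybridised pair as a random block (duplicateCorrelation). The steps were tested on simulated data. Python 3.11.15 did the rest.

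The members, lists, motifs and tests were chosen with earlier results of these data known. Some genes of the lists are not reported here by name. Every member may be named. Other genes are named from the lists, from the 5 largest falls and as the 10 most alike in level, and those outside these rules were chosen after their values were seen. Alternatives were normexp ratios, outlier spots kept, filters, other probes, thresholds, series matrix ratios, centring, single arrays, comparisons left out and other flags.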

Additional observations from a re-analysis of the deposited data

Results flagged for a closer look

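Of 22 tests of 1 sample standing apart among the 4 vehicle or the 4 PACAP samples, over the 11 genes down-regulated at 60 min in WT mice, 8 vehicle sets and 1 PACAP set exceeded Dixon's limit for 4 samples. Chance exceeds it in about 1 group in 20, but that rate does not apply to these genes, which were chosen for a fall from the WT 60 min vehicle sample, and the values are a description. The vehicle sample of WT mice at 60 min was the one apart, with a gap over the range of 0.936 for Alb, 0.915 for Fabp1, 0.897 for Fgg, 0.967 for Gc, 0.832 for Hpx, 0.956 for Serpina3k, 0.928 for Serpinc1 and 0.920 for Ttr. The 4 vehicle samples differ in genotype and time and are not replicates. Among the PACAP samples, that of KO mice at 60 min stood apart for Serpinc1 (0.837).

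Among the 11 genes down-regulated at 60 min in WT mice, the only members looked at for this, 5 had ratios at 60 min below 1 on both WT arrays and above 1 on both KO arrays, and none of them passed the rule in KO mice. The WT direction was fixed by how the 11 were chosen. Ambp, for example, read 1.16-fold and 1.02-fold on the KO arrays, and the levels of Ambp and Fgb were no higher with PACAP there (6.17 against 6.22, and 6.19 against 6.20). The log2 ratio as deposited was higher in KO than in WT mice by 4.21 for Serpinc1, 3.44 for Fgg, 2.32 for Ambp, 2.00 for Fgb and 1.84 for Hpx. None of the 5 was above background on both arrays of the WT 60 min PACAP sample, so these sizes are uncertain, and on the level scale Serpinc1 differed by -0.74 in WT and 0.33 in KO mice. The difference at 60 min alone was not tested, since each genotype has 1 pair of samples there.

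Second probes that were not used to stand for their genes passed the rule at 60 min in WT mice for Cyp3a11 (deposited log2 ratio -4.37), Apoa2 (-2.03) and Apoc3 (-1.1), whereas the brightest probes of these genes did not. The Cyp3a11 probe was above background on neither PACAP array, so its fall has only a bound, at least 1.5-fold.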

How the results depend on the processing

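The count of 11 down-regulated genes at 60 min in WT mice was between 11 and 15 with outlier spots kept, series matrix ratios, median centring, a filter on dim probes, all probes, a 1.5-fold limit or no p filter, and 13 with either array alone. With normexp and loess it was 2, and the ratio of the single genes there ran from -1.59 (Fabp1) to -0.51 (log2). Over 72 values of the genes past the rule under these settings, 62 stayed past it, 10 did not and 0 changed sign, the 10 all under normexp and loess. The single up-regulated gene in KO mice at 30 min became 0 with normexp and loess and 1 to 2 with single arrays. The count of 0 in WT mice at 30 min became 0 to 2 with single arrays, and that of 0 in KO mice at 60 min became 2 without the p filter and 2 to 3 with single arrays. The medians of WT mice at 30 min were -0.19 with series matrix ratios, -0.14 with the filter on dim probes and -0.16 to 0.00 with single arrays. Those of WT mice at 60 min were -0.19 with normexp and loess, -0.66 with series matrix ratios, -0.61 with the filter and -0.58 to -0.52 with single arrays. With single arrays the medians in KO mice were 0.06 to 0.30 at 30 min and -0.15 to 0.07 at 60 min.

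In the limma fits, leaving out 1 comparison gave 0 to 1 probes for the mean PACAP effect, 0 to 170 probes and 0 to 10 genes of the set for KO against WT, and 0 to 18 probes and 0 to 5 genes for 60 against 30 min. With time as a covariate KO against WT gave 17 probes and 1 gene, and with genotype as a covariate 60 against 30 min gave 2 probes. For levels by time, leaving out 1 pair gave 0 to 10653 probes and 0 to 9 genes, no random block 4889 probes, and vehicle samples only 0 probes and 0 genes. For levels by genotype these were 0 to 2746 probes and 0 to 7 genes, 2607 probes and 8 genes, and 0 probes and 0 genes. The cause was not tested beyond the smaller number of samples.

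On at least 1 of the 2 arrays, 36, 32, 43, 38, 41, 42, 43 and 41 of the 43 genes were above background in the 8 samples in the order used above, the same counts as on the Cy5 array alone, a setting added after the data were seen. With the positive and significant flag, 25, 21, 35, 29, 27, 28, 29 and 31 were above it in the same order. In place of the WT 60 min vehicle sample, the KO 60 min vehicle sample turned the median level difference of the 11 genes to 0.09, as did the mean of the 3 other vehicle samples (0.09), and the WT 30 min vehicle sample to 0.16, where the choice of the 11 genes by the replaced sample itself shrinks the difference. No paired analysis was possible because the replicate numbers mark the dye orientation of the same RNA pair, whose arrays were averaged before any fit. The hybridised pair of vehicle and PACAP, which is no replicate number, is in every ratio and is the random block of the level fits. Signal over background is a limit, since 13 of the 43 genes were above it on both arrays in no sample.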
